A study of Homo sapiens with 8 samples.

Results

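Retinoic acid metabolism and signaling were followed in nascent RNA of control and senescent fibroblasts over 10 genes, namely CYP26A1, CYP26B1, ALDH1A1, ALDH1A2, ALDH1A3, CRABP2, RARA, RARB, RARG and RARRES1. They are 10 of the 27945 genes counted. The rows were selected on their gene symbols, and the set was chosen by the measured values of 1 of them, since CYP26B1 had 0 counts in both control libraries. The study also picked CYP26B1 on these same libraries, as a gene with more transcription in senescence and less after either knockdown. Its values in those contrasts are therefore a description and carry no test.

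Retinoic acid is made from vitamin A in a pair of steps. Retinol is first oxidized to retinal, and retinal is then oxidized to retinoic acid by the ALDH1A enzymes. CRABP2 carries retinoic acid to the nucleus, where the receptors RARA, RARB and RARG, paired with a retinoid X receptor, bind DNA and change transcription. CYP26 enzymes degrade retinoic acid and so limit how far the signal reaches. RARB and CYP26A1 are textbook targets of the receptors themselves, and RARRES1 was named as a gene that responds to retinoids in skin.

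Nascent RNA was profiled by fastGRO-seq in IMR90 cells, a strain of primary human lung fibroblasts. Polymerases in isolated nuclei extend RNA they had already begun, in the presence of a labeled nucleotide, and the labeled RNA is captured and sequenced. The 4 groups had 2 libraries each. Control cells are labeled as wild type with no shRNA named. The other groups were made senescent by ER:RAS, an oncogenic RAS fused to the estrogen receptor that 4-hydroxytamoxifen (4-OHT) switches on. They received 100 nM 4-OHT, were harvested on day 6, and carried lentiviral shControl, shMETTL3 or shMETTL14 under puromycin selection. METTL3 and METTL14 together form the methyltransferase that deposits m6A on RNA. Senescence and the carriage of an shRNA cannot be told apart in any comparison with control cells. The libraries come from a single cell strain, and p-values measure only the spread between these libraries.

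Library totals ran from 14897360 to 20306299 counts, of which 86.2% to 92.5% lay in 21 rows of ribosomal RNA genes. The counts outside these rows ranged from 1513930 to 2048475, and the 10 retinoic acid genes together held 76 to 191 counts per library. All 9 fibroblast markers were detected, with summed levels of 315 to 715 RPKM, against 0.405 to 5.49 for 5 epithelial markers, at most 0.564 for 5 endothelial markers and 3.48 to 15.6 for 5 leukocyte markers, of which 1 was at 0 in every library. All 6 genes that rise in senescence were higher in senescent shControl than in control cells, where 13.3% of all genes were. Of 4 genes that fall, 3 were lower, where 13.3% were. With either knockdown against shControl 1 of the 6 was higher and 4 lower. Of all genes, 12.2% and 11.2% were with shMETTL3, and 9.15% and 12% with shMETTL14. The study picked IL1B, CXCL8 and MMP3 of the 6 on these libraries for both changes, so nothing is read from them. METTL3 raw counts were 77 and 47 in shControl cells and 16 and 19 in shMETTL3 cells (log2 fold change -2.04, SE 0.31, edgeR adjusted p = 1.79e-05). For METTL14 the control libraries held 60 and 55 raw counts, the shControl libraries 24 and 28 and the shMETTL14 libraries 18 and 14, and shMETTL14 did not pass the test against shControl (-0.86, SE 0.34, edgeR adjusted p = 0.0763). Between the knockdowns METTL14 was lower with shMETTL14 (-1.41, SE 0.32, edgeR adjusted p = 0.00101). These counts are of nascent RNA. For both knockdowns the study refers to a western blot, and protein was not measured here.

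The receptors bind direct repeats of a short half-site, and the promoters of RARB and CYP26B1 are printed because the results turn on these genes. RefSeq promoter windows (build GRCh38.p14, 250 bases before to 50 after each start) matched all 10 genes in 17 windows. They were searched on both strands for a pair of half-sites in the same orientation, 5 bases apart (DR5) or 2 bases apart (DR2). A half-site was AGGTCA or a variant of it, which was AGTTCA in the first case, GGGTCA in the second and GGTTCA in the last. Of 35116 windows of all genes, 0.0883% held a DR5 and 0.0399% a DR2. Of the 17 member windows, 2 held a match, both DR5, 1 in RARB and 1 in CYP26A1. The sequences below are the 250 bases upstream of the start, 5′ to 3′ on the gene's strand, with the DR5 in capitals.
RARB, plus strand, chr3:25428013-25428262: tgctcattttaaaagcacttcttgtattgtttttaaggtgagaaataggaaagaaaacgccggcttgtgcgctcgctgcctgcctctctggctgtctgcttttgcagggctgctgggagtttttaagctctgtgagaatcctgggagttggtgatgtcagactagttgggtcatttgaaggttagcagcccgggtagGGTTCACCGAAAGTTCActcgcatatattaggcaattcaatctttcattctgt
CYP26B1, minus strand, chr2:72147863-72148112: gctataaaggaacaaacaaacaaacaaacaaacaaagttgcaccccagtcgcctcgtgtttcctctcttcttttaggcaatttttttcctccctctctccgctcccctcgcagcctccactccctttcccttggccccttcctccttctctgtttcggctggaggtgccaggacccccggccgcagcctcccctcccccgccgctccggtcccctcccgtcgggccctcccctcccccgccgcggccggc

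The RARB repeat lies 53 to 37 bases before the start in the window that begins at chr3:25428013. The first RARB window on the gene's strand begins at chr3:24829071 and holds no repeat. RARB reads were counted over the whole gene, so they cannot be assigned to any 1 of its starts. The other 3 RARB windows and the CYP26B1 window hold neither repeat, which says only that these letters are not in those windows. The CYP26A1 match lies on the minus strand, 90 to 74 bases before the start, and was found in the window chr10:93073643-93073942. On the plus strand it reads TGAACTTTGGGTGAACT. A match is a description of the sequence and not evidence of a bound site.

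The deposited rows place the genes on hg19 and count reads over the whole gene body, introns included. CYP26B1 spans chr2:72356367-72374991 on the minus strand. RARB spans chr3:24870814-25639422 on the plus strand, 768608 bases in length, and is by far the longest of the 10. Of the others, RARA lies at chr17:38465423-38513895, RARG at chr12:53604350-53626040, ALDH1A3 at chr15:101419897-101456830, RARRES1 at chr3:158414897-158450275 and CRABP2 at chr1:156669400-156675608. CYP26A1 lies at chr10:94833232-94837641, ALDH1A1 at chr9:75515578-75568233 and ALDH1A2 at chr15:58245622-58358121. Although the file header names a strand setting, the counts behaved as if strands were not separated. Where an opposite-strand gene of 100 or more counts was nested in a longer one, the longer gene matched or exceeded its count in all libraries for 313 of 315 such pairs.

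CYP26B1, which clears retinoic acid, was not detected in control cells and was the member with the highest level per gene length (RPKM) in senescent shControl cells, though RARA had more counts there. It had 0 and 0 raw counts in control cells, 29 and 26 in shControl cells, 5 and 3 in shMETTL3 cells, and 10 and 4 in shMETTL14 cells. The shControl libraries stood above every other library, and the knockdown libraries overlapped each other. A count of 0 allows up to 0.162 and 0.160 CPM (library-scaled counts) in the control libraries (3 counts of the library total, for counting error only). Against 3 counts per control library, the normalized level was at least about 12-fold higher with shControl, about 1.51-fold with shMETTL3 and about 2.70-fold with shMETTL14. Of the shControl mean, 12.6% was left with shMETTL3 and 22.5% with shMETTL14 (log2 fold changes of -2.96, SE 0.56, and -2.12, SE 0.51). Without shMETTL14 replicate 1 the latter was -2.89. The direct comparison of the knockdowns, which the choice did not use, gave a difference of 0.84 (SE 0.71, edgeR adjusted p = 0.377) and was not called. CYP26B1 passed the filter on low counts with both libraries of a group only in shControl cells, where it is high. Without that filter the difference was 0.84 (edgeR adjusted p = 0.497) and was again not called. In these bulk libraries, fewer cells that transcribe a gene and less transcription per cell cannot be told apart.

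**Figure D1:**
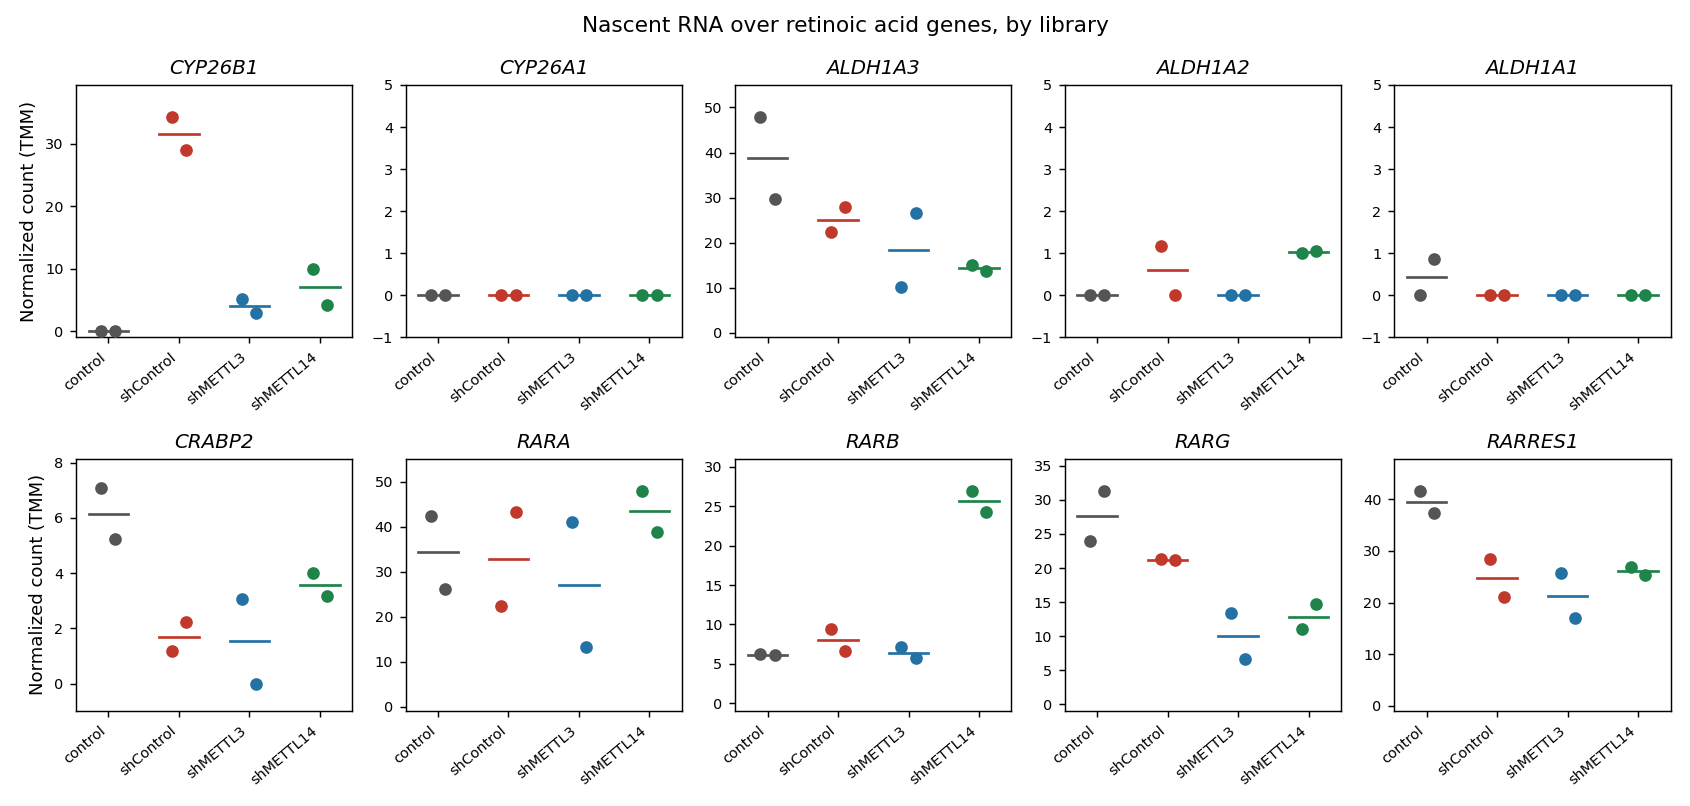
Normalized counts (TMM, y axis, each panel with its own scale) of the 10 genes in the 4 groups, with a point per library and a line at the mean of 2 libraries. CYP26B1 is high only in the shControl libraries (34.3 and 28.9) and RARB only in the shMETTL14 libraries (27.0 and 24.2), while CYP26A1 is at 0 throughout.

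CYP26A1, the related enzyme best known as a direct retinoic acid target, had 0 counts in all 8 libraries, which allows at most 0.148 to 0.201 CPM per library. Its transcription was not detectable at this depth in any group.

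The genes whose log2 CPM followed CYP26B1 most closely over the 8 libraries were ANPEP, PRKG2, DNER, CXCL1 and CXCL3, with Pearson's r of 0.981, 0.980, 0.980, 0.979 and 0.975. The libraries form 4 groups of 2, so these values describe a shared group pattern, and the study lists each of them, with CYP26B1, among genes it picked with these libraries. ANPEP, a membrane aminopeptidase, had 73 and 79 raw counts in control cells, 441 and 449 in shControl cells, 130 and 117 in shMETTL3 cells, and 160 and 122 in shMETTL14 cells. CXCL1, a chemokine of the senescence secretome, had 11 and 9, then 844 and 746, then 119 and 91, and then 131 and 102 counts in the same order.

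Among the enzymes that make retinoic acid, ALDH1A3 was the one that passed the filter on low counts. It had 54 and 34 raw counts in control cells, 19 and 25 in shControl cells, 10 and 28 in shMETTL3 cells, and 15 and 13 in shMETTL14 cells. Both control libraries lay above all senescent libraries, and the shMETTL3 libraries were far apart. Against control cells ALDH1A3 was lower with shMETTL3 (-1.05, SE 0.38, edgeR adjusted p = 0.0276) and with shMETTL14 (-1.42, SE 0.40, edgeR adjusted p = 0.00527). With shControl the difference from control cells was -0.62 (SE 0.37, edgeR adjusted p = 0.234). Neither knockdown passed against shControl, at -0.43 (SE 0.42, edgeR adjusted p = 0.493) and -0.81 (SE 0.44, edgeR adjusted p = 0.203). Without control replicate 1 both calls were lost, at -0.67 and -1.04, and the shMETTL3 call was also lost without shMETTL3 replicate 1 (-0.54) and when only the groups compared were fitted (-1.04, edgeR adjusted p = 0.0593). DESeq2 called neither (adjusted p = 0.205 and 0.0630).

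ALDH1A3 shares 65.7% of its span with the antisense gene LOC101927751, whose counts were 47 and 28, 17 and 22, 9 and 24, and 12 and 9 in the same order. These nearly equal those of ALDH1A3, so reads of the gene and its antisense partner cannot be told apart here. ALDH1A1 had 1 count in all, in a control library. ALDH1A2 had 3 counts in all, 1 with shControl and 1 in each shMETTL14 library. Neither was tested. CRABP2, the carrier, had 8 and 6 counts in control cells, 1 and 2 in shControl cells, 3 and 0 in shMETTL3 cells, and 4 and 3 in shMETTL14 cells. The control libraries were the highest, but CRABP2 stayed under the filter on low counts and was not tested.

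Of the receptors, RARB stood out after METTL14 knockdown. It had 7 and 7 raw counts in control cells, 8 and 6 in shControl cells, 7 and 6 in shMETTL3 cells, and 27 and 23 in shMETTL14 cells. Both shMETTL14 libraries lay above all others, and the other 6 libraries differed by at most 2 counts. The normalized count was 25.6 ± 1.96 (SD, n = 2) with shMETTL14 and 8.07 ± 1.97 (SD, n = 2) with shControl. The log2 difference of shMETTL14 was 1.66 (SE 0.48) from shControl, 1.98 (SE 0.48) from shMETTL3 and 2.04 (SE 0.48) from control cells. Between senescent shControl and control cells the difference was 0.38 (SE 0.59).

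RARB passed the filter on low counts only through the shMETTL14 libraries, the group where it is high, so its calls among the filtered genes are no evidence of a difference and their p-values are not given. In the fit without that filter, over every gene that had a count (21522 genes), RARB was higher with shMETTL14 than with shControl (1.65, edgeR adjusted p = 0.0116), than with shMETTL3 (1.98, edgeR adjusted p = 0.000906) and than in control cells (2.06, edgeR adjusted p = 0.000293). Among the filtered genes, the call against shControl was lost under DESeq2 (1.67) and when any 1 of the 4 libraries was left out, namely shControl replicate 1 (1.92), shControl replicate 2 (1.42), shMETTL14 replicate 1 (1.56) or shMETTL14 replicate 2 (1.73). The call against shMETTL3 was lost without shMETTL14 replicate 1 (1.88). RARB shares 26 bases with TOP2B on the other strand, whose counts were lowest with shMETTL14 (115 and 123), and it holds LOC105376997, which had 0 counts.

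RARG was lowest in the knockdown groups. It had 27 and 36 raw counts in control cells, 18 and 19 in shControl cells, 13 and 7 in shMETTL3 cells, and 11 and 14 in shMETTL14 cells. The knockdown libraries lay below the shControl libraries, which lay below the control libraries. Against control cells RARG was lower with shMETTL3 (-1.47, SE 0.42, edgeR adjusted p = 0.00642) and with shMETTL14 (-1.10, SE 0.41, edgeR adjusted p = 0.0317). Against shControl the differences were -1.09 (SE 0.45, edgeR adjusted p = 0.0842) and -0.72 (SE 0.44, edgeR adjusted p = 0.261), and without shMETTL3 replicate 1 the first became -1.67 and was called (adjusted p = 0.0229). The shMETTL3 call against control cells was lost without control replicate 2 (-1.27) or shMETTL3 replicate 2 (-1.05). The shMETTL14 call was lost without any 1 of its 4 libraries, control replicate 1 (-1.28), control replicate 2 (-0.89), shMETTL14 replicate 1 (-0.89) or shMETTL14 replicate 2 (-1.31). DESeq2 called neither (adjusted p = 0.0880 and 0.218).

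RARA differed between the libraries of a group. It had 48 and 30 raw counts in control cells, 19 and 39 in shControl cells, 40 and 14 in shMETTL3 cells, and 48 and 37 in shMETTL14 cells. It was called in none of the 6 comparisons, with adjusted p from 0.164 to 0.949. Without shMETTL3 replicate 1 it was called lower with shMETTL3 than with shControl (-1.33), lower than in control cells (-1.36) and higher with shMETTL14 than with shMETTL3 (1.72). RARA-AS1, an antisense gene inside RARA, had 0 to 5 counts per library.

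RARRES1 was highest in control cells. It had 47 and 43 raw counts in control cells, 24 and 19 in shControl cells, 25 and 18 in shMETTL3 cells, and 27 and 24 in shMETTL14 cells. Both control libraries lay above all senescent libraries, and the senescent groups overlapped. The difference from control cells was called with shMETTL3 (-0.89, SE 0.32, edgeR adjusted p = 0.0282) but not with shControl (-0.68, SE 0.32, edgeR adjusted p = 0.126) or shMETTL14 (-0.59, edgeR adjusted p = 0.135). The shMETTL3 call was lost without control replicate 1 (-0.82), control replicate 2 (-0.97) or shMETTL3 replicate 2 (-0.63), and DESeq2 did not make it (adjusted p = 0.224). It was also lost when counts were scaled by library size alone (-0.78, edgeR adjusted p = 0.0576) or when only the groups compared were fitted (-0.87, edgeR adjusted p = 0.0623).

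**Figure D2:**
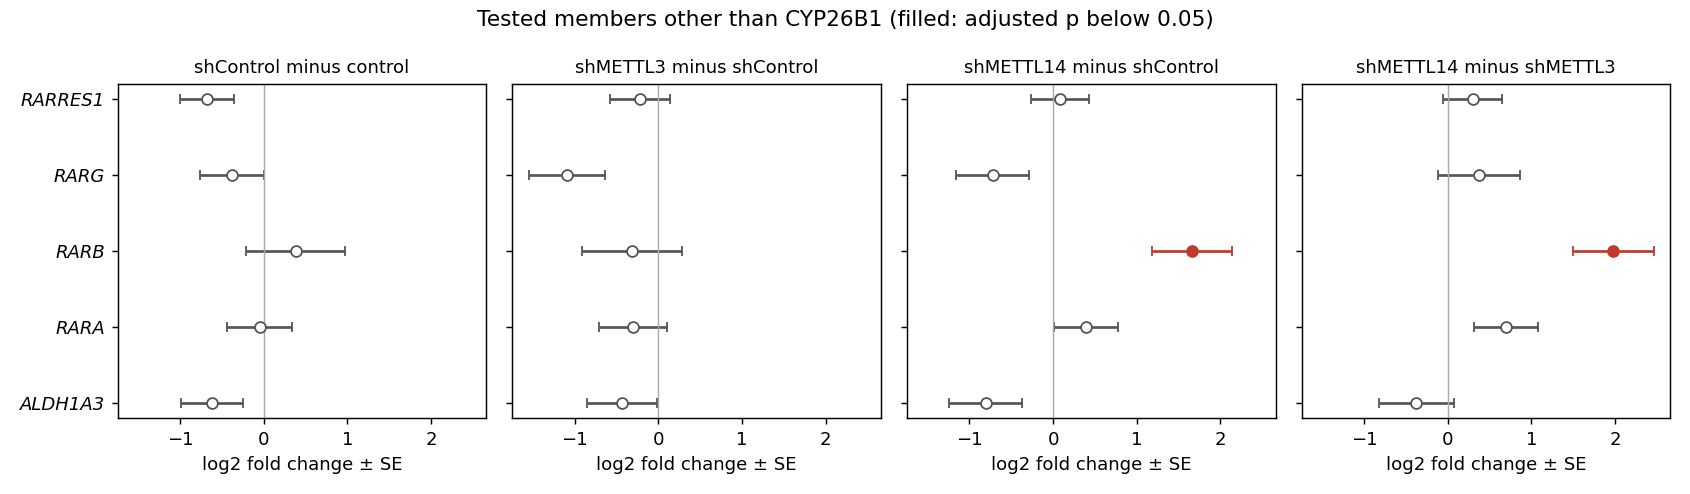
Log2 fold change (x axis, bars are 1 SE) of the 5 tested genes other than CYP26B1 in 4 comparisons, with filled points for an adjusted p below 0.05. RARB is the one gene with filled points, at 1.66 for shMETTL14 against shControl and at 1.98 for shMETTL14 against shMETTL3, and it was among the tested genes only through shMETTL14.

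Of the 10 genes, 6 passed the filter on low counts, and 5 besides CYP26B1 were counted in each comparison. Between senescent shControl and control cells edgeR called 0 higher and 0 lower, where 13.3% of all tested genes were higher and 13.3% lower. At an unadjusted p below 0.05 the count was 0 higher and 1 lower (RARRES1), and DESeq2 called 0. With shMETTL3 against shControl edgeR again called 0 and 0, where 12.2% and 11.2% of all genes were higher and lower. There the unadjusted count was 0 higher and 1 lower (RARG), and DESeq2 called 0. With shMETTL14 against shControl 1 was higher and 0 lower, where 9.15% and 12% of all genes were. In this and the other comparisons of shMETTL14 the member called higher was RARB, which was among the tested genes only through its counts in shMETTL14, so nothing is read from that count. No more were lower at an unadjusted p below 0.05, and DESeq2 called 0 in either direction. With shMETTL14 against shMETTL3, where CYP26B1 also counts, 1 of 6 was higher and 0 lower, where 16.5% and 18.7% of all genes were. DESeq2 and the unadjusted test gave the same counts there.

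Against control cells, 0 were higher and 3 lower of 5 with shMETTL3, where 20.1% of all genes were higher and 20.1% lower. With shMETTL14, 1 was higher and 2 lower, where 19.7% were higher and 20.5% lower. DESeq2 called 0 with shMETTL3 and 1, RARB, with shMETTL14. The comparisons with control cells share the control libraries. The median difference of the 5 genes was -0.38 for shControl and -0.89 for shMETTL3 against control cells, beside -0.03 and -0.05 over all genes tested. With counts scaled by library size alone, the median of all genes moved to -0.53 for shControl against control cells, 0.58 for shMETTL3 against shControl and 0.35 for shMETTL14 against shControl. ALDH1A3 (-1.11) and RARRES1 (-1.17) were then called lower with shControl than in control cells, and RARRES1 was no longer called with shMETTL3 against control cells (-0.78).

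**Figure D3:**
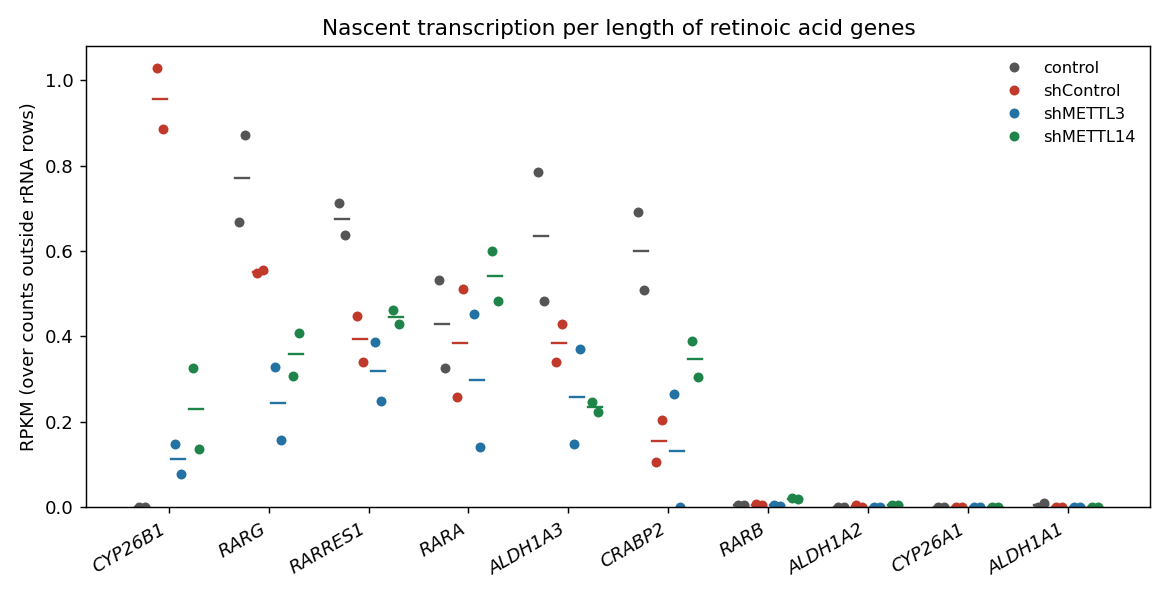
Level per gene length (RPKM over counts outside the ribosomal RNA rows, y axis) of the 10 genes, ordered by their mean with shControl, with a point per library and a line at the mean of 2 libraries. CYP26B1 is first with shControl at a mean of 0.957, RARG is first in control cells at 0.770, and RARB stays near the axis in every group.

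Per gene length, the order of the levels changed between groups. With shControl, CYP26B1 was first at 0.957 ± 0.101 RPKM (SD, n = 2), above 76.2% of all genes. RARG followed at 0.552 ± 0.00513, and then RARRES1 at 0.394 ± 0.0761, RARA at 0.385 ± 0.178 and ALDH1A3 at 0.384 ± 0.0632, which did not differ beyond their spread. CRABP2 stood at 0.155 ± 0.0692 and RARB at 0.00591 ± 0.00136. In control cells RARG was first at 0.770 ± 0.144, and its neighbours RARRES1 (0.676 ± 0.0524), ALDH1A3 (0.634 ± 0.213) and CRABP2 (0.600 ± 0.130) had libraries that overlapped those of RARG. With shMETTL3 the highest mean was that of RARRES1 at 0.318 ± 0.0986. Its libraries (0.388 and 0.248) lay between those of RARA (0.453 and 0.141) and overlapped those of ALDH1A3 (0.149 and 0.370). With shMETTL14 RARA was first at 0.541 ± 0.0830. RARB stood at 0.0201 ± 0.00167 RPKM with shMETTL14 and was still seventh of the 10, above 39.6% of all genes.

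The other genes of the pathway were taken from lists of 69 genes, of which 36 were tested. Between senescent shControl and control cells 8 were higher and 11 lower, with shMETTL3 against shControl 10 and 4, and with shMETTL14 against shControl 5 and 4. Of all genes tested, 13.3% and 13.3%, 12.2% and 11.2%, and 9.15% and 12% were higher and lower in these comparisons. With 1 library left out the list counts were 4 to 8 higher and 5 to 7 lower for shControl against control cells, 3 to 8 and 2 to 5 for shMETTL3 against shControl, and 2 to 3 and 2 to 4 for shMETTL14 against shControl. The 8 and 11 were 4 and 5 without shControl replicate 1, and the 11 was 6 to 7 without any of the other libraries. For shMETTL3 the 10 was 6 without shControl replicate 1 and 3 without replicate 2, and the 4 was 2 without replicate 1. For shMETTL14 the 5 was 2 to 3 without any 1 of its 4 libraries, and the 4 was 2 without either shControl library or shMETTL14 replicate 1. Of the 36 genes, 2 passed the filter through 1 group alone, FABP5 through shMETTL14 and RARRES2 through control cells, and both are named after their values were seen. Scaled by library size alone these became 5 and 20, 19 and 1, and 9 and 1. DESeq2 called fewer, 6 lower between senescent shControl and control cells, 2 lower with shMETTL3 against shControl, and 2 higher with shMETTL14 against shControl. The median difference of the list was -0.06, 0.23 and -0.10, beside -0.03, -0.03 and -6.39e-05 over all genes.

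Enzymes that convert retinol and retinal were split. Of 9 tested, 2 were higher and 2 lower with shControl than in control cells, where 13.3% of all genes were higher and 13.3% lower. RETSAT, which saturates retinol, rose by 1.04 (SE 0.25, edgeR adjusted p = 0.0027), and RDH11, a retinal reductase, by 0.59. DHRS3, which reduces retinal back to retinol, fell by 0.98 and CYP1B1, an oxidizing P450, fell by 0.99. With shMETTL3 against shControl DHRS3 was higher by 1.01 (SE 0.31, edgeR adjusted p = 0.0184) and RDH10, which oxidizes retinol to retinal, by 0.76 (SE 0.18, edgeR adjusted p = 0.00246). RDH10 had 81 and 82 raw counts in shControl cells, 155 and 167 in shMETTL3 cells, and 101 and 106 in shMETTL14 cells. CYP1B1 fell by 2.30 and RDH11 fell by 0.65 with shMETTL3. With shMETTL14 RDH11 fell by 0.90 and ADH5 fell by 0.69. In the first 3 comparisons 2 and 2, 2 and 2, and 0 and 2 of the 9 were thus higher and lower, where 12.2% and 11.2% of all genes were in the second and 9.15% and 12% in the third. Between the knockdowns 1 of the 9 was higher and 2 lower, where 16.5% and 18.7% of all genes were. CYP1B1 was higher with shMETTL14 than with shMETTL3 by 1.58 (edgeR adjusted p = 0.00784). RDH10 and DHRS3 were lower with shMETTL14 than with shMETTL3, by differences of -0.58 (edgeR adjusted p = 0.0103) and -0.85 (edgeR adjusted p = 0.0265).

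Many of these enzyme calls depended on 1 library. Between shControl and control cells the DHRS3 call was lost without any 1 of the 4 libraries (-1.12 to -0.82), the CYP1B1 call without any library other than control replicate 1, the RDH11 call without any other than shControl replicate 2, and the RETSAT call without shControl replicate 1 (0.90). With shMETTL3 against shControl, DHRS3 lost its call without either shControl library (0.85 without replicate 2), RDH10 without shControl replicate 2 (0.72) and RDH11 without shControl replicate 1 (-0.58), while CYP1B1 kept it in all 4. With shMETTL14 against shControl ADH5 lost it without any library other than shMETTL14 replicate 2, and RDH11 kept it in all 4. Between the knockdowns CYP1B1 lost it without shMETTL3 replicate 2 (1.25) or shMETTL14 replicate 1 (1.36), RDH10 without shMETTL14 replicate 1 (-0.53), and DHRS3 without shMETTL3 replicate 1 (-0.78) or shMETTL14 replicate 1 (-0.60). Scaled by library size alone, RDH11 was called in none of the first 3 comparisons (0.096, -0.03 and -0.55), and RETSAT with shControl (0.54) and ADH5 with shMETTL14 (-0.35) were not called either. DESeq2 did not call RDH11, DHRS3 or CYP1B1 between shControl and control cells, RDH11 or DHRS3 with shMETTL3, ADH5 with shMETTL14, or RDH10 or DHRS3 between the knockdowns, and the last was also lost when only the groups compared were fitted (-0.83).

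Of genes for retinol uptake and storage, 4 of 14 were tested. RPE65 (0 and 1 raw counts in control cells, 12 and 7 in shControl cells) was higher and RBP5 (22 and 29, then 4 and 9) was lower with shControl than in control cells, both named after their values were seen. RPE65 reached the filter level only in shControl and shMETTL14 libraries, and RBP5 only in control and shMETTL3 libraries. Each thus passed without the group of this comparison where it is low, and nothing is read from either call. The higher call was lost without control replicate 1 or shControl replicate 1, and the lower call without either control library or shControl replicate 1. DGAT1, which can esterify retinol, was higher with shMETTL14 than with shControl (1.18, SE 0.41, edgeR adjusted p = 0.0386), a call lost without shControl replicate 1 (1.36), shControl replicate 2 (1.01) or shMETTL14 replicate 2 (0.79) and under DESeq2. Of 5 genes for clearance and binding, FABP5, another carrier of retinoic acid, was the 1 tested. It had 4 and 1 raw counts in control cells, 3 and 3 in shControl cells, 3 and 8 in shMETTL3 cells, and 15 and 12 in shMETTL14 cells. It is among the genes counted as higher with shMETTL14 than with shControl, but it passed the filter only through shMETTL14, and the call was lost without any 1 of the 4 libraries. LRAT, CYP26C1, CRABP1 and RXRG, named after their values were seen, had 0 counts in every library.

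The partner receptor and the cofactors of the receptors were listed together. RXRA, the retinoid X receptor that pairs with them, had 151 and 114 raw counts in control cells, 40 and 58 in shControl cells, 43 and 40 in shMETTL3 cells, and 39 and 36 in shMETTL14 cells. It fell by 1.05 with shControl against control cells (SE 0.22, edgeR adjusted p = 0.000663), and neither knockdown was called against shControl. Of the 12 tested genes of this list 1 was higher and 4 lower with shControl than in control cells, where 13.3% of all genes were higher and 13.3% lower. NRIP1, a corepressor, was higher by 0.71, and the coactivators CREBBP and NCOA2 fell by 0.73 and fell by 0.74. With shMETTL3 NRIP1 (0.57), NCOR1 (0.54) and NCOA2 (0.51) were higher than with shControl, and MED1 (-1.11) and PPARD (-0.50) lower. Scaled by library size alone PPARD turned to 0.11, and neither MED1 with shMETTL3 (-0.49) nor NRIP1 with shControl (0.22) was called. With shMETTL14 NRIP1 (0.73) and CREBBP (0.42) were higher and 0 of the 12 lower, where 9.15% and 12% of all genes were, beside 12.2% and 11.2% with shMETTL3. The CREBBP call was lost without any 1 of the 4 libraries (0.38 to 0.45), under DESeq2 and without the filter on low counts. DESeq2 did not call NCOA2 or PPARD with shMETTL3. With shMETTL3, NRIP1 and NCOR1 lost their calls without shControl replicate 2 (0.53 and 0.51) or shMETTL3 replicate 2 (0.34 and 0.38), and NCOA2 and PPARD without any library other than shMETTL3 replicate 1.

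**Figure D4:**
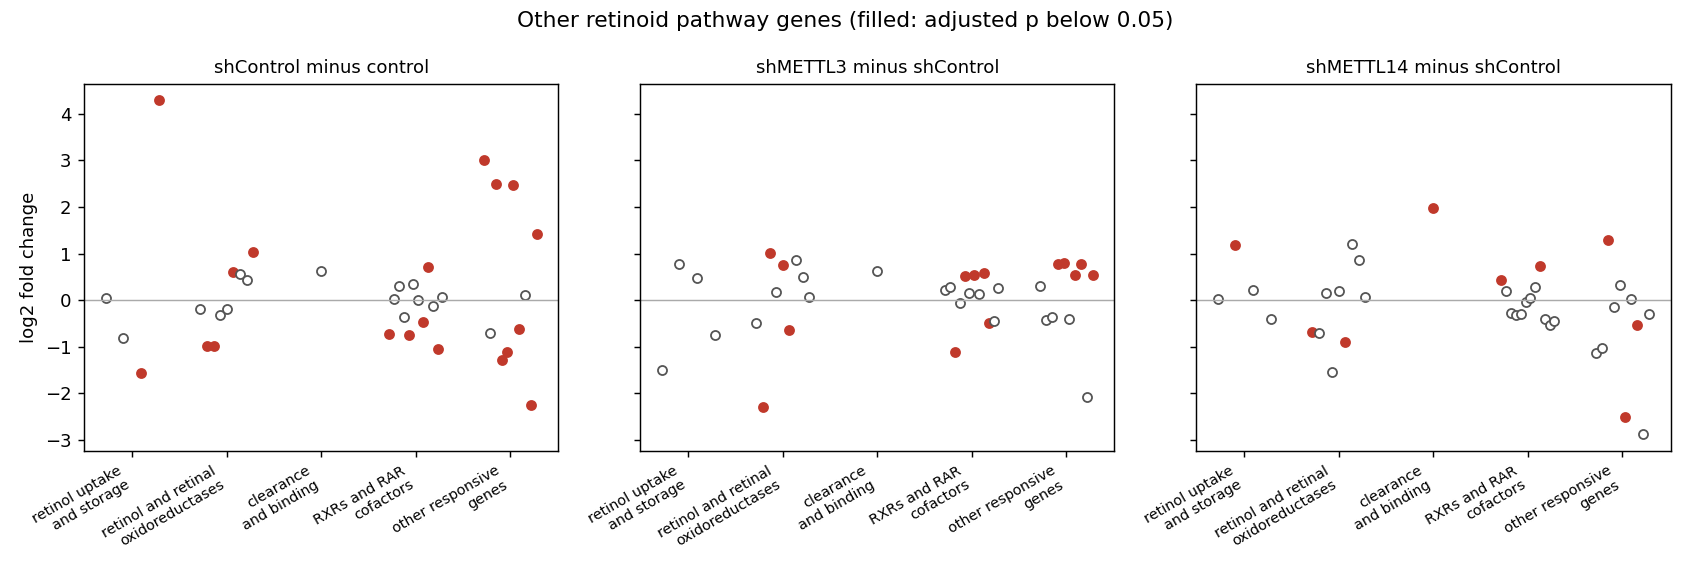
Log2 fold change (y axis) of the tested genes of 5 retinoid pathway lists in 3 comparisons, with a point per gene, filled for an adjusted p below 0.05. Calls lie on both sides of 0 in each comparison, with 8 higher and 11 lower, 10 and 4, and 5 and 4 from left to right.

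Other genes known to respond to retinoic acid also moved both ways. Of 10 tested, 4 were higher and 4 lower with shControl than in control cells, where 13.3% of all genes were higher and 13.3% lower. ICAM1, an adhesion molecule, rose by 2.50, PLAT, a plasminogen activator, by 2.46 and TGM2, a transglutaminase, by 1.42. The homeobox genes MEIS1 and MEIS2 fell by 1.28 and fell by 1.11, and RAI1 fell by 0.63. With shMETTL3 against shControl 5 were higher and 0 lower, namely MEIS1 (0.78), MEIS2 (0.79), RAI1 (0.53), RAI14 (0.77) and TGM2 (0.55), where 12.2% of all genes were higher and 11.2% lower. The 5 became 3 without shControl replicate 1, shControl replicate 2 or shMETTL3 replicate 1, and without the last 1 gene was lower. With shMETTL14 against shControl ICAM1 was higher (1.29), PLAT lower (-2.52) and RAI14 lower (-0.54). PLAT had 1955 and 1775 raw counts in shControl cells, 1732 and 1524 in shMETTL3 cells, and 213 and 508 in shMETTL14 cells. In the direct test of the knockdowns 1 of the 10 was higher with shMETTL14 (ICAM1, 1.66) and 7 were lower, among them PLAT (-2.11), RAI14 (-1.32) and MEIS1 (-0.92), where 16.5% and 18.7% of all genes were higher and lower. Without shMETTL14 replicate 1 the 7 became 4. The RAI1 call against control cells was lost without control replicate 1 (-0.47) or shControl replicate 1 (-0.52). With shMETTL3, RAI1 lost its call without any library other than shMETTL3 replicate 2 (0.28 without shMETTL3 replicate 1), TGM2 without shControl replicate 2 (0.44) or shMETTL3 replicate 1 (0.29), and MEIS2 without shControl replicate 1 (0.59). With shMETTL14 RAI14 lost its call without any library other than shMETTL14 replicate 2 and when scaled by library size alone (-0.20). DESeq2 did not call RAI1 with shMETTL3. Of the fibroblast markers, 7 of 9 were lower and 0 higher with shMETTL14 than with shControl, where 12% and 9.15% of all genes were, and 7 of 9 were lower and 1 higher with shControl than in control cells, where 13.3% and 13.3% were. Their part in these results was not tested.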

How the data were processed

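The 8 fastGRO-seq libraries of IMR90 cells fall into 4 groups of 2. The authors aligned the reads to hg19 (STAR, per the labels) and deposited raw counts per gene, made with HOMER over whole gene bodies on condensed genes, without normalization and with replicates kept apart. Every row names a gene. Per the file headers each row also gives a gene length, from which RPKM was computed over counts outside 21 ribosomal RNA rows.

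Counts of all 8 libraries were fitted with edgeR 4.0.16 in R 4.3.3 (TMM, filterByExpr with a minimum count of 10, quasi-likelihood test). The Benjamini-Hochberg adjustment ran over all 12844 genes tested, with a threshold of 0.05. Of 27945 genes, 6423 had no count. Values called differences, falls or rises are log2 fold changes on this scale with their SE. Alternatives were DESeq2 1.42.0, other scalings, filters and thresholds, fits of 2 groups, replicate number as a block, and each library left out. The scripts were tested on simulated data. The members and gene lists were chosen with earlier results of these data known. Named list genes are those called in at least 1 of the first 3 comparisons with a mean of at least 20 counts, except that 1 of them is included in the list counts but is not reported here by name. Spike-in reads were not used here, and every fold change is relative to the rest of its library. No 2 libraries of a group agreed within sampling noise (chi-square per gene 1.53 to 5.13). Promoter windows came from RefSeq. Plots were drawn with matplotlib 3.10.9.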

Additional observations from a re-analysis of the deposited data

Results flagged for a closer look

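The RARB effect of shMETTL14 exceeded that of shMETTL3 by 1.98 on the log2 scale (SE 0.48). RARB passed the filter on low counts only through the shMETTL14 libraries, so its p among the filtered genes is not given. Without that filter the difference was 1.98 (edgeR adjusted p = 0.000906 over 21522 genes). Both shMETTL14 libraries (27 and 23 raw counts) lay above both shMETTL3 libraries (7 and 6). Among the filtered genes the call was lost without shMETTL14 replicate 1 (1.88). Groups of 2 libraries are too small to be searched for a library that stands apart.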

How the results depend on the processing

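Of the log2 fold changes of the 6 tested genes under all alternatives, 423 kept their direction and their side of the threshold, 31 lost a call, 6 gained one, 18 turned and 2 of CYP26B1 moved (-2.35 for shMETTL3 against shControl scaled by library size alone, -2.89 for shMETTL14 without its replicate 1). With DESeq2 the genes called over the whole table were 1938 for senescent shControl against control cells, 1567 and 1366 for shMETTL3 and shMETTL14 against shControl, 2657 between the knockdowns, and 3239 and 3266 for the knockdowns against control cells. DESeq2 called 0 of the retinoic acid genes higher with shMETTL14 than with shControl, and 0 lower in either knockdown against control cells. At an adjusted p below 0.01 the whole-table counts in the first 4 comparisons were 2264, 1752, 1571 and 2996, 0 members were higher with shMETTL14 than with shControl, and 1 was lower in each knockdown against control cells. With a log2 change of 1 or more also required, the counts were 1800, 1283, 1266, 2200, 2931 and 2997. Scaled by library size alone they were 5759 and 5638 in the first 2 comparisons, with 2 members lower with shControl than in control cells, RARB turned there (-0.11), and ALDH1A3 (0.19), RARA (0.28), RARB (0.29) and RARRES1 (0.39) turned for shMETTL3 against shControl, as did PPARD (0.11). Library size alone gave 752 higher and 5007 lower genes for shControl against control cells, beside 1711 and 1702. Upper quartile scaling turned RARB for shMETTL3 against control cells (-0.012). With at least 10 counts in every library RARB was not tested, so 0 members were higher with shMETTL14 in its 3 comparisons, and 1 was lower than in control cells. In fits of only the groups compared, 1 member was lower with shMETTL3 than in control cells.

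With 1 library left out, the lone library of its group is assumed to vary like the other groups. Over all genes 1829 to 2422 were then called for shControl against control cells, 1492 to 3989 and 1270 to 2036 for shMETTL3 and shMETTL14 against shControl, and 2404 to 5410 between the knockdowns. Members called lower ranged from 1 to 3 for shMETTL3 and 0 to 1 for shMETTL14 against control cells, and 0 to 2 for shMETTL3 against shControl. Members called higher ranged from 0 to 0 for shMETTL14 against shControl and from 0 to 2 between the knockdowns. The values that turned ranged, for RARA, from -0.59 to 0.35 for shControl against control cells, -1.36 to 0.25 for shMETTL3 against control cells and -1.33 to 0.29 for shMETTL3 against shControl. For shMETTL3 against shControl ALDH1A3 ranged from -1.31 to 0.061 and RARRES1 from -0.54 to 0.036. RARRES1 ranged from -0.12 to 0.30 for shMETTL14 against shControl, RARB from -0.11 to 0.21 for shMETTL3 against control cells, and ALDH1A3 from -0.87 to 0.50 and RARG from -0.038 to 0.95 between the knockdowns. The cause was not tested. Of the other named genes under all alternatives, 998 values kept their call, 186 lost it and 1 turned.

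Same-numbered replicates did not deviate together (correlations of -0.04 to 0.10, 1 of 6 over 0.1). No pairing by replicate number was thus detected, and none was used in the main fit. The labels do not say whether the replicates were prepared in pairs. With the replicate block RARB was 1.66 for shMETTL14 against shControl, 2698 genes were called there, and the counts of members called were 1 higher and 0 lower, as without it. Counts of 0 to 54 per gene and library limit the precision of every member.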
